A study of Mus musculus with 16 samples.

Results

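The RNA of 6 genes of the mitogen-activated protein (MAP) kinase pathway was measured in mouse colonic mucosa with a TaqMan OpenArray inflammation panel, a plate of quantitative PCR assays. They were taken by gene name from the panel, as every name that begins with Map2k, Map3k or Mapk, together with Fos. The rule gave 6 of 584 genes and 7 of 648 assays: Map2k3, Map2k6, Mapk14, Mapkapk2, Mapk8 and Fos, the last with 2 assays. No name beginning with Map3k was on the panel. The 16 samples formed 4 groups of 4. DNBS_CEC mice were given DNBS (dinitrobenzene sulfonic acid, which inflames the colon) into the rectum and CEC by mouth, an agent that the labels do not spell out. DNBS_Nissle mice received rectal DNBS and oral Nissle, the name of a probiotic strain of Escherichia coli. DNBS mice received rectal DNBS and oral phosphate-buffered saline (PBS), and healthy mice received PBS by both routes. All groups are thus colonic mucosa of dosed mice; strain, sex and age are not given in the sources used here. The design text speaks of RNA pooled over mice, whereas the samples are numbered singly, so p-values measure only the spread between these samples.

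MAP kinases are the last tier of a relay in which an upstream kinase phosphorylates a MAP kinase kinase, which phosphorylates the MAP kinase in turn. Map2k3 and Map2k6 encode the kinases MKK3 and MKK6, which activate p38 kinases. Mapk14 encodes p38 alpha, Mapkapk2 encodes MK2, a kinase downstream of p38 that controls the stability of inflammatory mRNAs, and Mapk8 encodes JNK1, which phosphorylates Jun. Fos encodes a transcription factor that pairs with Jun in AP-1 and belongs to the immediate early genes, transcribed within minutes of a stimulus. The cascade itself is switched by phosphorylation, which a measurement of RNA does not read. In bulk mucosa, fewer cells of a type and less RNA per cell cannot be told apart.

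The promoters of 3 members are shown because Map2k3 and Mapk8 varied together from sample to sample while Fos did not follow them. All 6 members matched the RefSeq promoter table (build GRCm38.p6). The sequences are the 250 bases before the most upstream start site in that table, on the strand of the gene. For Mapk8 that site lies inside the gene as RefSeq's gene list bounds it: 195 of the 250 bases, both marked half-sites among them, fall within the annotated gene. Capitals mark the CRE half-site TGACG and the TATA box TATAAA, each searched on both strands. The AP-1 site TGANTCA was searched as well.
Fos, chr12:85473640-85473889, plus strand: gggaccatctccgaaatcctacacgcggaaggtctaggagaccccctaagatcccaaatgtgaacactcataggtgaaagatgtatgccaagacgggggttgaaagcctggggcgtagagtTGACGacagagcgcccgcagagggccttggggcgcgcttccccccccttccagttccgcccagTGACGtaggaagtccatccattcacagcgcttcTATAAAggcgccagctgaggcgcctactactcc
Mapk8, chr14:33447159-33447408, minus strand: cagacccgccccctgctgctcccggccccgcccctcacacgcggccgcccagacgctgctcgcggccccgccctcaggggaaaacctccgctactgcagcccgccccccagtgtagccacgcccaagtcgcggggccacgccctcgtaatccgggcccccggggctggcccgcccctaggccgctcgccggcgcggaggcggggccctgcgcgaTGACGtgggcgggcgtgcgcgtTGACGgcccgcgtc
Map2k3, chr11:60931804-60932053, plus strand: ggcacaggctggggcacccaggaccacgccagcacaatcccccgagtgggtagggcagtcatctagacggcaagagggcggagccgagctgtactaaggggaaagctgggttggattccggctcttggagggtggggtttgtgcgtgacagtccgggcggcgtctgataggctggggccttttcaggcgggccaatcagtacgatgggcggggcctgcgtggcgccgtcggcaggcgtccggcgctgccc
The Fos window held 2 CRE half-sites and 1 TATA box, the Mapk8 window 2 CRE half-sites and the Map2k3 window none of the searched letters. Of 32851 mouse promoters of this length, 17.8% held TGACG, 12.4% TATAAA and 6.75% TGANTCA. Map2k6 was the member with an AP-1 match (1), and the windows of Mapk14 and Mapkapk2 had no match of any kind. The genes lie on chromosomes 11 (Map2k3 and Map2k6), 17 (Mapk14), 1 (Mapkapk2), 14 (Mapk8) and 12 (Fos). These matches describe letters in a window and not binding.

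A level below is −ΔCt, the mean cycle threshold (Ct) over 13 reference genes less the Ct of the measured gene, a log2 scale on which a higher value is more RNA. Levels of different genes are not set against each other, since assays differ in efficiency. Between 528 and 564 assays per sample were detected, that is, had a Ct of 28 or less, and the mean Ct of the reference genes lay between 18.69 and 20.12. Of the 13 reference genes, Ywhaz ran from Ct 17.90 to 26.83 and Rplp2 from 23.57 to 26.56. Every level below carries this. Leaving both genes out moved Map2k6 from −2.86 to −3.91 in DNBS_CEC sample 6, but only from −3.78 to −4.12 in DNBS_Nissle sample 4. All 6 members were detected in every sample, with a highest Ct of 24.5. Some values of the table match the average of the remaining samples in the group and were read as filled in, none of them of a member, but 4 of the 112 member values may have lost digits (Fos in DNBS_CEC sample 2, Map2k3 in DNBS_Nissle sample 1, Map2k6 in DNBS sample 5 and Mapkapk2 in DNBS sample 2). Of the 7 listed epithelial markers the panel held 1, the keratin Krt8, which was detected in all samples, and it held none of the 4 smooth muscle or 4 B cell markers. All 5 listed adipocyte markers were on the panel and 4 of them were detected in all samples.

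No member passed in any comparison. In limma, fitted over the whole table with Benjamini-Hochberg adjustment and a threshold of 0.05, 0 of 6 members passed between DNBS and healthy mucosa, where 1.09% of 458 genes did. The count was 0 of 6 for DNBS_CEC against healthy (background 0% of 459 genes), 0 of 6 for DNBS_Nissle against healthy (2.4% of 458) and 0 of 6 for the 3 DNBS-treated groups together against healthy (1.98% of 454). It was also 0 of 6 for DNBS_CEC against DNBS (0% of 475 genes), DNBS_Nissle against DNBS (0% of 475) and DNBS_CEC against DNBS_Nissle (0% of 472). At an unadjusted p under 0.05 limma also gave 0 of 6 in each of the 7 comparisons, where the share of all genes was 9.83%, 5.45%, 16.8% and 12.6% in DNBS, DNBS_CEC, DNBS_Nissle and the 3 groups together against healthy. It was 1.68% in DNBS_CEC against DNBS, 1.47% in DNBS_Nissle against DNBS and 4.45% in DNBS_CEC against DNBS_Nissle. With the 13 reference genes, the groups did not overlap for 1 of 6 members between DNBS and healthy, Map2k6, and for 0 of 6 in the other comparisons. The share of all genes without overlap was 8.52% for DNBS, 3.49% for DNBS_CEC, 13.8% for DNBS_Nissle and 1.98% for the 3 groups together against healthy, and 0.632% for DNBS_CEC against DNBS, 1.05% for DNBS_Nissle against DNBS and 2.33% for DNBS_CEC against DNBS_Nissle. Of 36 exact permutation tests over samples, 1 for each member and pair of groups, 1 gave a p under 0.05, for Map2k6 between DNBS and healthy mucosa. Groups of 4 that do not overlap always give this test its smallest p, so that result and the non-overlap of Map2k6 are the same finding. The comparisons share samples: those against healthy use the same healthy samples, and those against DNBS the same DNBS samples.

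**Figure D1:**
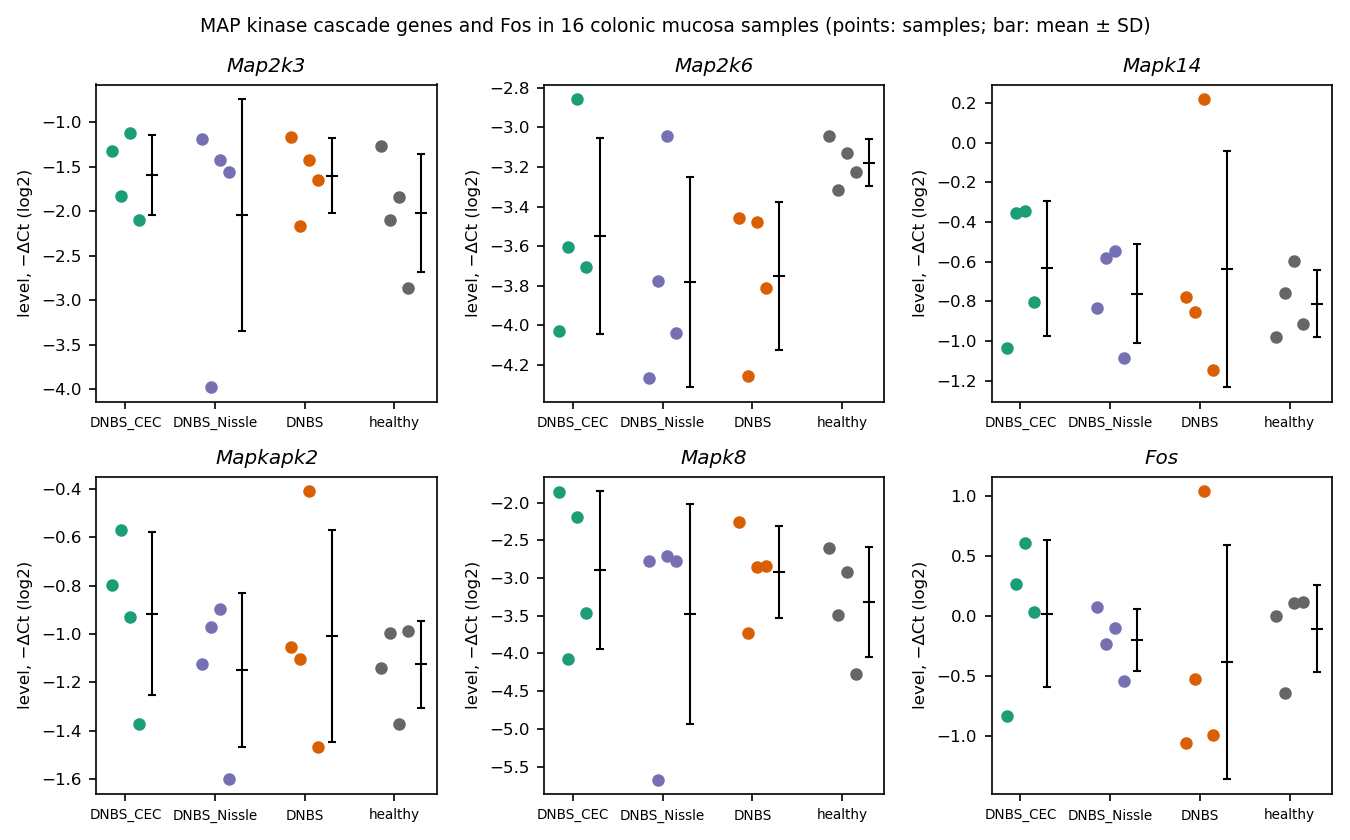
Level (−ΔCt, log2) of each of the 6 members in the 16 samples, with the groups DNBS_CEC, DNBS_Nissle, DNBS and healthy from left to right, points for samples and a bar for mean ± SD (n = 4). The groups overlap in every panel except for Map2k6, where all DNBS samples lie below all healthy samples, and DNBS_Nissle sample 4 lies far below the others in Map2k3 and Mapk8.

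Of the genes for the p38 activators, Map2k6 had the lower p in each comparison with healthy mucosa. Map2k6 had levels of −4.03, −3.60, −2.86 and −3.70 in DNBS_CEC samples 1, 2, 6 and 8. In DNBS_Nissle samples 1, 4, 5 and 7 it stood at −4.27, −3.78, −3.04 and −4.04. DNBS samples 2, 3, 4 and 5 had −3.46, −4.26, −3.48 and −3.81, against −3.04, −3.32, −3.13 and −3.23 in healthy samples 3, 4, 5 and 6. The healthy samples lay close together at the upper end, and each DNBS-treated group was wider. All 4 DNBS samples were below all 4 healthy ones, while DNBS_CEC sample 6 and DNBS_Nissle sample 5 lay above the highest healthy sample.

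Map2k6 averaged −3.55 ± 0.50 in DNBS_CEC, −3.78 ± 0.53 in DNBS_Nissle, −3.75 ± 0.37 in DNBS and −3.18 ± 0.12 in healthy mucosa (mean ± SD, n = 4 each). The difference between DNBS and healthy was −0.57 ± 0.34 (± SE; 95% confidence interval −1.29 to 0.14), or 0.672-fold, with a limma adjusted p of 0.617. The exact permutation test over samples gave 0.0286 (two-sided, n = 4 per group), the smallest p that 4 against 4 allows, before any adjustment. Any gene whose groups of 4 do not overlap gets this p, so it restates the non-overlap and adds nothing to it. Of all tested genes 8.52% did not overlap between these groups in either direction, and 1.75% did not with DNBS lower, a direction taken from the data. Of the 458 genes 16.8% had a lower limma p than Map2k6. The value came to −0.40 without DNBS sample 3.

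The other differences of Map2k6 from healthy mucosa also lay below 0 and did not pass. DNBS_Nissle differed from healthy by −0.60 ± 0.34 (limma adjusted p = 0.366) and DNBS_CEC by −0.37 ± 0.34 (adjusted p = 0.918), and in both of these comparisons the groups overlapped. DNBS_CEC came to −0.60 without its sample 6, to −0.21 without its sample 1 and to −0.11 with the replicate number as a block. The 3 DNBS-treated groups together differed from healthy by −0.51 ± 0.28 (95% interval −1.10 to 0.07, limma adjusted p = 0.398). Among the DNBS-treated groups, DNBS_CEC differed from DNBS by 0.20 ± 0.34, DNBS_Nissle from DNBS by −0.03 ± 0.34 and DNBS_CEC from DNBS_Nissle by 0.23 ± 0.34, all within their SE. In order of mean level, healthy stood first, followed by DNBS_CEC, DNBS and DNBS_Nissle, and no neighbours in that order differed beyond the spread of their samples. Groups held 31.1% of the variance of Map2k6, more than in any other member.

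Map2k6 was also read against another member. Against Mapk14 in the same sample, a value that needs no reference gene and was chosen after the data were seen, Map2k6 averaged −2.91 ± 0.31 in DNBS_CEC, −3.02 ± 0.40 in DNBS_Nissle, −3.11 ± 0.52 in DNBS and −2.37 ± 0.23 in healthy mucosa (log2 ratio of Map2k6 to Mapk14, mean ± SD, n = 4). The 4 DNBS samples ranged from −3.70 to −2.67 and the healthy samples from −2.56 to −2.07. No test was run on this ratio, and it contains Map2k6, which alone did not overlap between DNBS and healthy samples. Markers of neutrophils moved across the same groups: 3 of the 4 tested neutrophil markers (Ltf, S100a8 and S100a9) rose in DNBS against healthy mucosa, calls that were lost with the global mean as reference, or without any one of DNBS samples 2 and 3 and healthy samples 3, 4 and 6, when 0 genes passed. The summed level of the 6 neutrophil markers on the panel, as a percentage of the reference level, was 7.61 to 727 in DNBS_CEC, 448 to 1210 in DNBS_Nissle, 56.3 to 5020 in DNBS and 3.17 to 9.87 in healthy samples. Of these 6 markers 3 were detected in all 16 samples, and none was undetected throughout. Their part in the Map2k6 values was not tested. Of the other cell type lists, myeloid (4 of 9 on the panel), T cell (2 of 7), adipocyte and epithelium markers gave 0 calls in every comparison, and of 2 endothelial markers on the panel Selp rose in DNBS_Nissle against healthy (3.26 ± 0.71, limma adjusted p = 0.0176), a call lost without healthy sample 3.

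**Figure D2:**
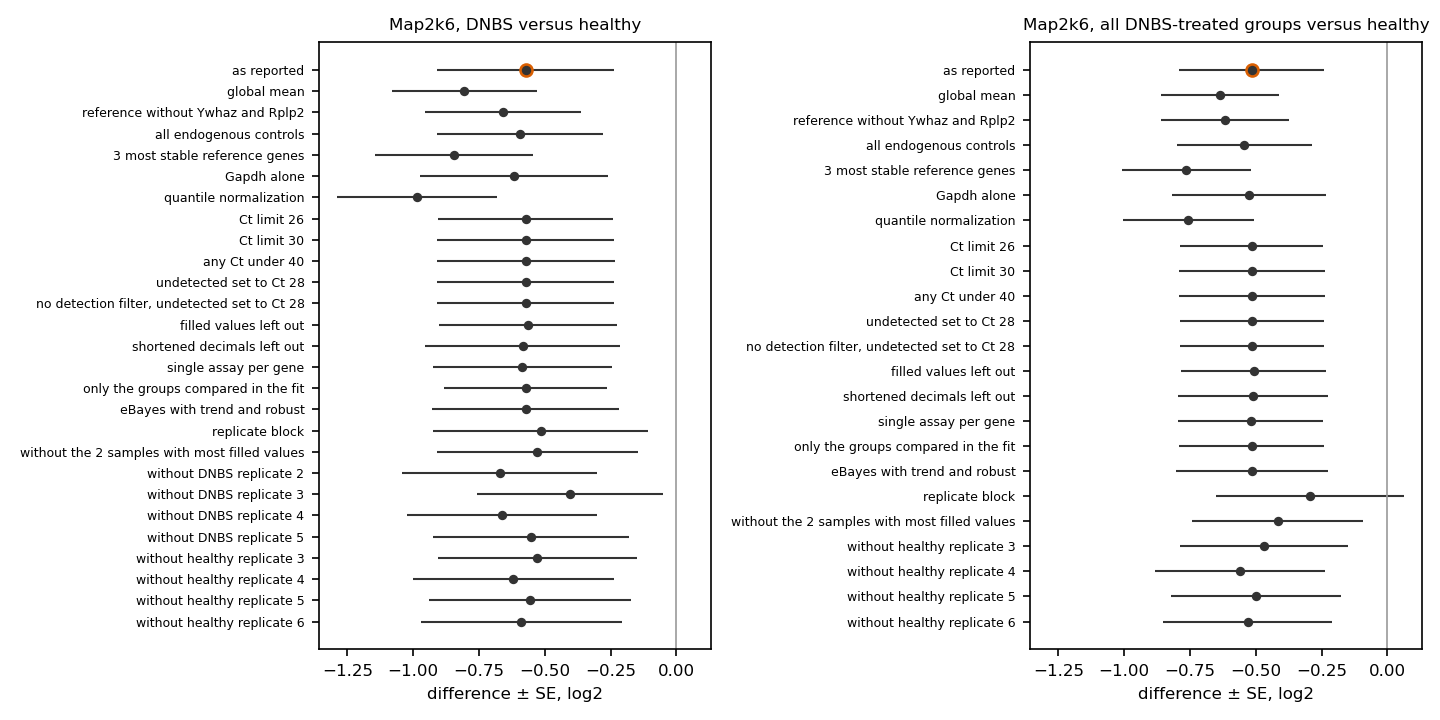
Difference of Map2k6 (log2, bars ± SE) between DNBS and healthy mucosa on the left and between the 3 DNBS-treated groups and healthy mucosa on the right. It is drawn as reported (larger orange point) and under each alternative named beside it. On the right, only the settings that leave out a healthy sample are drawn among those that leave out 1 sample. All points lie below 0, from −0.99 with quantile normalization to −0.40 without DNBS sample 3 on the left.

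Map2k3, like each of the other members, varied more between samples of a group than between groups. Groups held 9.04% of its variance, against a median of 18% over the 413 genes detected in all samples. Its levels were −1.32, −1.83, −1.12 and −2.10 in DNBS_CEC samples 1, 2, 6 and 8. They were −1.19, −3.98, −1.43 and −1.56 in DNBS_Nissle samples 1, 4, 5 and 7. DNBS samples 2, 3, 4 and 5 had −1.16, −2.16, −1.42 and −1.65, against −1.27, −2.09, −1.84 and −2.86 in healthy samples 3, 4, 5 and 6. DNBS_Nissle sample 4 was the lowest of the 16 samples, healthy sample 6 the next, and the groups overlapped throughout.

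The mean level of Map2k3 was −1.59 ± 0.45 in DNBS_CEC, −2.04 ± 1.30 in DNBS_Nissle, −1.60 ± 0.43 in DNBS and −2.02 ± 0.66 in healthy mucosa (mean ± SD, n = 4). DNBS differed from healthy by 0.42 ± 0.53 (95% interval −0.71 to 1.54, limma adjusted p = 0.932), and by 0.14 without healthy sample 6. DNBS_CEC differed from DNBS by 0.01 ± 0.53 (95% interval −1.13 to 1.14). DNBS_Nissle differed from DNBS by −0.44 ± 0.53, which turned to 0.21 without DNBS_Nissle sample 4. The intervals of these differences reach past 1 log2 unit, and a 2.92-fold higher level in DNBS than in healthy lies at the edge of the first.

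The p38 kinase gene Mapk14 and its downstream kinase gene Mapkapk2 had the lowest within-group SDs of the members against the 13 reference genes. Without Ywhaz and Rplp2 in the reference, Map2k6 (SD 0.36) came below Mapk14 (0.41). Mapk14 ranged from −1.03 to −0.35 in DNBS_CEC, from −1.08 to −0.55 in DNBS_Nissle, from −1.15 to 0.22 in DNBS and from −0.98 to −0.60 in healthy samples. Mapkapk2 ranged from −1.37 to −0.57 in DNBS_CEC, from −1.60 to −0.90 in DNBS_Nissle, from −1.47 to −0.41 in DNBS and from −1.37 to −0.99 in healthy samples. The highest value of both genes belonged to DNBS sample 4, and the groups overlapped for both.

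Against healthy mucosa, Mapk14 differed by 0.17 ± 0.32 in DNBS (95% interval −0.51 to 0.85, limma adjusted p = 0.963), 0.18 ± 0.32 in DNBS_CEC and 0.05 ± 0.32 in DNBS_Nissle. Mapkapk2 differed by 0.12 ± 0.30 in DNBS (95% interval −0.52 to 0.76, adjusted p = 0.963), 0.21 ± 0.30 in DNBS_CEC and −0.02 ± 0.30 in DNBS_Nissle. Without DNBS sample 4 the DNBS values were −0.11 for Mapk14 and −0.08 for Mapkapk2. Over the 3 DNBS-treated groups together the 95% interval ran from −0.42 to 0.69 for Mapk14 and from −0.42 to 0.62 for Mapkapk2, so a difference of 1 log2 unit lies outside both. The within-group SD was 0.37 for Mapk14 and 0.33 for Mapkapk2, against a median of 0.64 over the 413 genes detected in all samples; 10.7% and 4.6% of these genes had an SD as low as theirs or lower.

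**Figure D3:**
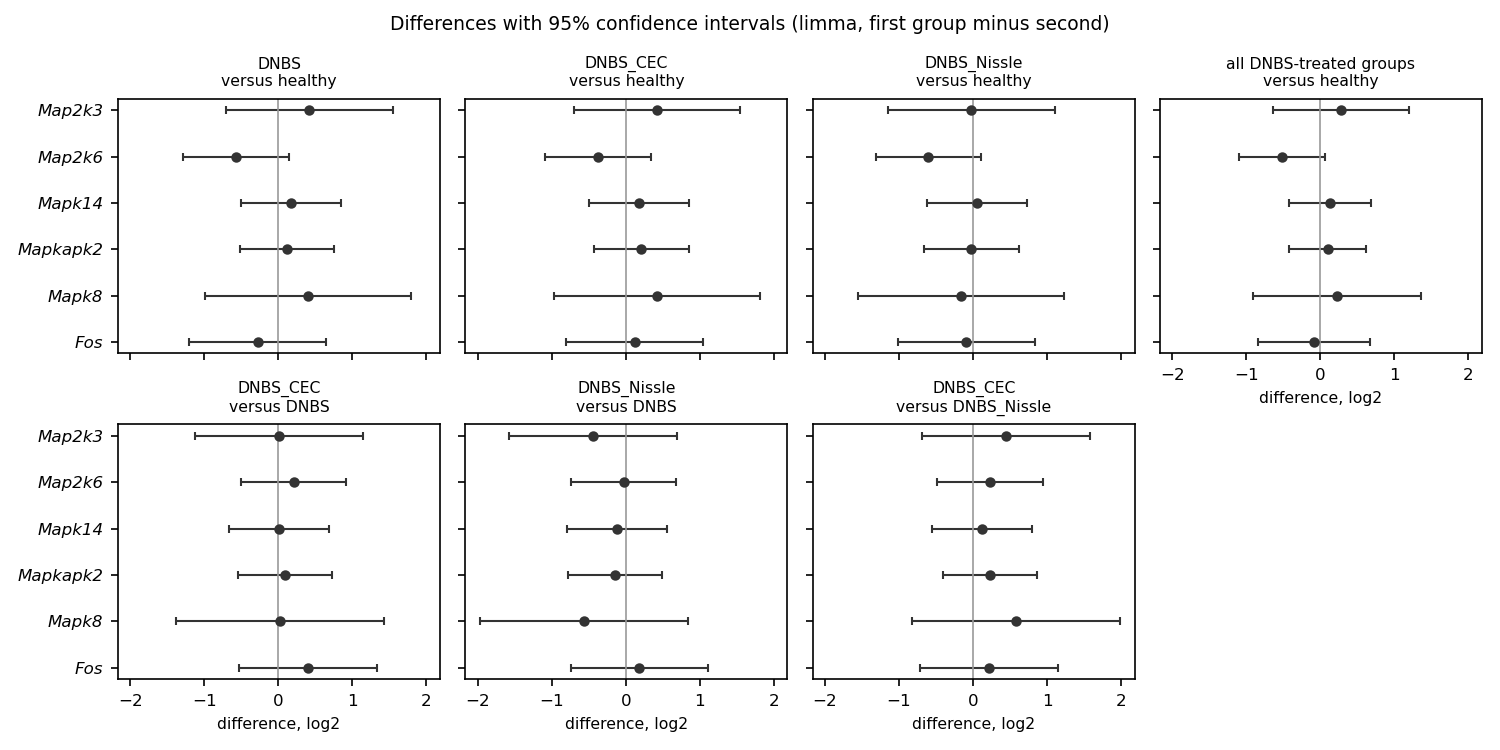
Difference of each member (log2, first group minus second) with its 95% confidence interval from limma, 1 panel for each of the 7 comparisons and 1 row for each gene. Every interval includes 0, and the widest belong to Mapk8.

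Mapk8, the JNK1 gene, had the widest spread of the members. Its levels were −1.86, −4.08, −2.19 and −3.46 in DNBS_CEC samples 1, 2, 6 and 8. DNBS_Nissle samples 1, 4, 5 and 7 had −2.77, −5.67, −2.71 and −2.77. DNBS samples 2, 3, 4 and 5 had −2.25, −3.73, −2.85 and −2.85, against −2.60, −3.49, −2.92 and −4.27 in healthy samples 3, 4, 5 and 6. DNBS_Nissle sample 4 was again the lowest of all samples, and the other 3 DNBS_Nissle samples were nearly level.

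Mapk8 averaged −2.90 ± 1.05 in DNBS_CEC, −3.48 ± 1.46 in DNBS_Nissle, −2.92 ± 0.61 in DNBS and −3.32 ± 0.73 in healthy mucosa (mean ± SD, n = 4). DNBS differed from healthy by 0.40 ± 0.66 (95% interval −0.99 to 1.79, limma adjusted p = 0.963), and by 0.09 without healthy sample 6. DNBS_CEC differed from DNBS by 0.02 ± 0.66, or 0.41 without DNBS_CEC sample 2 and −0.33 without DNBS_CEC sample 1. DNBS_CEC differed from DNBS_Nissle by 0.58 ± 0.66 and DNBS_Nissle from DNBS by −0.56 ± 0.66. Without DNBS_Nissle sample 4 these values were −0.15 and 0.17. From the highest to the lowest sample the level of Mapk8 spanned 14.1-fold, and groups held 7.6% of its variance, against a median of 18% over the 413 genes.

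Map2k3 and Mapk8 moved together across the samples. Over the 16 samples their Pearson r was 0.936 and their Spearman rho 0.891. With each group's mean taken out, r was 0.932, and without DNBS_Nissle sample 4 and healthy sample 6, the samples farthest from the median of Map2k3, it was 0.823. On raw Ct values, which no reference gene enters, r was 0.919. On the same scale, assays of 1 reference gene, Hprt1, had r from 0.0332 to 0.887 with Mapk8, so such a value can depend on the assay. Whether this holds for Map2k3 and Mapk8 was not tested. The log2 ratio of Mapk8 to Map2k3 had an SD of 0.36 over all samples. By group its SD was 0.72 in DNBS_CEC, 0.23 in DNBS_Nissle, 0.22 in DNBS and 0.15 in healthy samples. In DNBS_CEC that was more than the SD of Map2k3 itself (0.45), so the tie was loosest there. Pooled within groups, Map2k3 and Mapk8 had SDs of 0.79 and 1.02. These are another measure than an SD over all samples. The correlations and SDs describe samples that share a reference and a plate format, and the pair was picked from 15 pairs of members.

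Fos and Mapk14 also moved together, less closely. Fos and Mapk14 had r = 0.772 (rho = 0.603), which was 0.719 without DNBS samples 2 and 4, and Mapk14 and Mapkapk2 had r = 0.73 (rho = 0.641), which was 0.575 without DNBS sample 4 and DNBS_CEC sample 6. Mapk14 and Map2k3, the genes of a kinase and its activator, had r = 0.0281 (rho = 0.0676). With the reference genes Ywhaz and Rplp2 left out, which had the widest Ct ranges of the reference assays, that value was −0.405, so its sign depends on the reference. Map2k6 had r between 0.112 and 0.396 with each of the other 5 members, its highest being with Fos, and the values with Map2k3 and Mapk8 turned to −0.31 and −0.257 without Ywhaz and Rplp2.

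**Figure D4:**
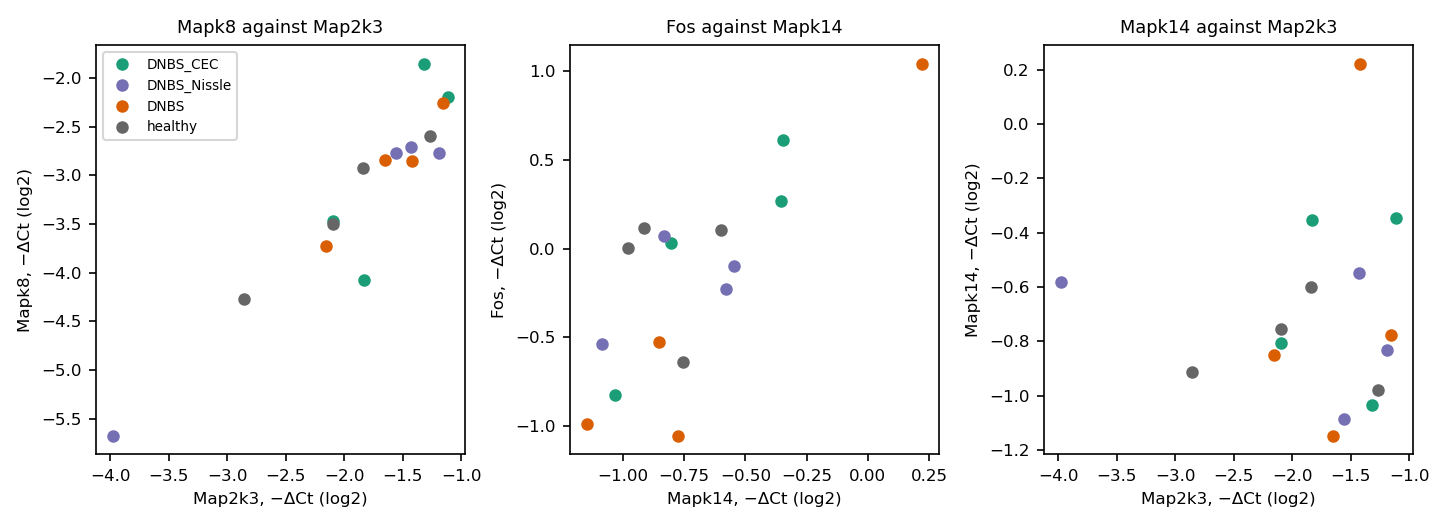
Level of Mapk8 against Map2k3 (left), Fos against Mapk14 (middle) and Mapk14 against Map2k3 (right), each axis −ΔCt on the log2 scale, with 1 point per sample coloured by group. The points run along 1 line on the left (r = 0.936 over 16 samples), with those of DNBS_CEC scattered most about it, and show no such line on the right (r = 0.0281).

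The keratin Krt8 ran with Map2k3 and Mapk8. Its r was 0.922 with Mapk8 and 0.915 with Map2k3 (rho 0.776 and 0.762), against 0.0576 with Fos and 0.344 with Map2k6. Genes outside the epithelium list ran closer, such as Cr1l with Mapk8 (0.966) and Blnk with Map2k3 (0.968). Krt8 stood at 0.71 in DNBS_Nissle sample 4, while the other 15 samples lay between 2.85 and 4.72, and r was not computed without DNBS_Nissle sample 4. In DNBS_Nissle sample 4, 22.3% of the 413 genes detected everywhere had their lowest level of the 16 samples, the largest such share. DNBS_Nissle sample 7 followed with 14.5%. No other marker of the epithelium list was on the panel. The part of the epithelial marker in the values of Map2k3 and Mapk8 was not tested.

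Fos did not separate the inflamed groups from healthy mucosa. Its level, the mean of both assays, was −0.83, 0.27, 0.61 and 0.03 in DNBS_CEC samples 1, 2, 6 and 8. It was 0.07, −0.23, −0.10 and −0.54 in DNBS_Nissle samples 1, 4, 5 and 7. In DNBS samples 2, 3, 4 and 5 it was −1.05, −0.52, 1.04 and −0.99, against 0.00, −0.64, 0.11 and 0.11 in healthy samples 3, 4, 5 and 6. DNBS samples held both the highest and the lowest value of the 16, and all groups overlapped.

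Fos averaged 0.02 ± 0.61 in DNBS_CEC, −0.20 ± 0.26 in DNBS_Nissle, −0.38 ± 0.98 in DNBS and −0.10 ± 0.36 in healthy mucosa (mean ± SD, n = 4). DNBS differed from healthy by −0.28 ± 0.44 (95% interval −1.20 to 0.65, limma adjusted p = 0.963). That value was −0.75 without DNBS sample 4 and −0.05 without DNBS sample 2. DNBS_CEC differed from DNBS by 0.40 ± 0.44 (95% interval −0.53 to 1.33, adjusted p = 0.999), or 0.88 without DNBS sample 4 and 0.18 without DNBS sample 2. DNBS_Nissle differed from DNBS by 0.18 ± 0.44, or 0.66 and −0.04 without the same samples. Over the 3 DNBS-treated groups together, the difference from healthy was −0.08 ± 0.36 (95% interval −0.84 to 0.67).

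Both Fos assays gave the same picture. Their Ct values had r = 0.975 over the 16 samples (rho = 0.944), and the second assay (Mm00487426_g1) crossed its threshold 0.802 ± 0.131 cycles after the first (Mm00487425_m1; mean ± SD, n = 16). The genes whose levels were most like that of Fos over the 16 samples, among 407 genes outside the members and detected in all samples, were a RIKEN gene listed as 57303B10Rik (r = 0.819), the lymphatic growth factor Vegfc (0.769), the viral RNA sensor Ddx58 (0.753), the activin receptor Acvr1 (0.729) and the peptide-trimming enzyme Erap1 (0.72), where the median gene had r = 0.165. By the same measure, and chosen after the values were seen, Mapk8 was most like Cr1l (0.966), Tollip (0.96) and the small GTPase Rac1 (0.959). Map2k3 was most like the B cell adaptor Blnk (0.968), and Map2k6 most like Sectm1b (0.909) and the bone morphogenetic protein Bmp6 (0.879).

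Other genes of the pathway were taken from fixed lists. Of 14 immediate early and AP-1 genes the panel held Jun and Zfp36, and neither passed in any comparison. Jun, the partner of Fos, differed from healthy by −0.36 ± 0.31 in DNBS, −0.14 ± 0.31 in DNBS_CEC and −0.39 ± 0.31 in DNBS_Nissle. Zfp36, which encodes tristetraprolin, an mRNA-destabilising protein and a target of MK2, differed by 0.32 ± 0.46, 0.60 ± 0.46 and 0.23 ± 0.46 in DNBS, DNBS_CEC and DNBS_Nissle.

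Of 36 listed receptors, adaptors and kinases upstream, 16 were on the panel and tested, and 0 of them passed in any of the 7 comparisons. Their median difference between DNBS and healthy was 0.25, beside 0.12 for all 458 genes, and that of the members was 0.14. Nearest to passing in DNBS was the adaptor Myd88, at 0.85 ± 0.37 (limma adjusted p = 0.401). In DNBS_Nissle against healthy it was the tumour necrosis factor receptor Tnfrsf1b, at 1.38 ± 0.45 (adjusted p = 0.145). Of the NF-kB list the panel held Nfkb1 and Rela of 12, and of the neighbouring kinases 6 of 26 (Akt1, Jak1, Jak2, Jak3, Lyn and Pik3r1). No gene of either list passed in any comparison. Nearest in DNBS against healthy were Nfkb1 at 0.46 ± 0.70 (limma adjusted p = 0.963) and Jak3 at 0.65 ± 0.36 (adjusted p = 0.606).

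Of the 5 pathway lists, the one with called genes was that of inflammatory genes whose promoters are known to bind AP-1. The panel held 11 of 19, and 6 could be tested against healthy mucosa: Ccl2, Cxcl1, Il1b, Nos2, Ptgs2 and Tnf. Between DNBS and healthy 1 of 6 rose, the inducible nitric oxide synthase Nos2 (3.83 ± 0.72, limma adjusted p = 0.0286), and 0 fell. With the global mean, the 3 most stable reference genes or quantile normalization in place of the 13 reference genes, 0 genes of the table passed in that comparison, Nos2 included. The count was also 0 without any one of DNBS samples 2 and 3 and healthy samples 3, 4 and 6. In the DNBS_Nissle comparison with healthy 2 of 6 rose, Il1b (4.76 ± 1.02, adjusted p = 0.0176) and Nos2 (3.13 ± 0.72, adjusted p = 0.0234), and both calls were lost without healthy sample 3, when 0 genes passed. In DNBS_CEC against healthy 0 of 6 passed, with Nos2 at 2.31 ± 0.72 (adjusted p = 0.337). The median of the list was 2.05 in DNBS, 2.67 in DNBS_Nissle and 1.24 in DNBS_CEC, beside medians of 0.12, −0.09 and 0.09 over all genes tested. The Fos differences in the same comparisons were −0.28, −0.09 and 0.12. The list was drawn up with earlier results of these samples known, so its direction is not independent evidence.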

How the data were processed

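The authors deposited raw Ct values, with no normalization, per the file header; the unit is recorded as other, and 40 stands for no amplification. The panel was run on an OpenArray cycler per the labels; thresholding software is not given in the sources used here. The table appears to have been edited. Of 10368 values 194 match the average over the remaining 3 samples in the same group (tolerance 2e-06). In addition, 532 values under 40 have 4 or fewer decimals and may have lost digits, which would move a value by less than 1 cycle. The 4 member values among them keep 4 decimals (18.5949, 20.1513, 22.8094 and 20.6585), so lost digits would move these far less.

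A Ct above 28 was treated as missing. Where a gene had several assays, the average was taken over those with the highest number of detected samples. The reference was the mean of 13 endogenous control genes (19 assays). Genes detected in at least 3 of 4 samples of each group compared were fitted with limma 3.58.1 in R 4.3.3, in 1 model over 16 samples (12 residual degrees of freedom), checked on simulated data. No counting interval was given, since molecules are not counted here.

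All members are reported; Fos, Map2k3, Mapk8 and the member with the lowest p of a comparison get every sample's value. Members and lists were chosen with earlier results of these data known. Replicate numbers in the titles were not taken as pairs. Pathway genes outside the members came from 5 lists, and cell type markers from 8.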

Additional observations from a re-analysis of the deposited data

Results flagged for a closer look

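Within each group of 4 samples, the gap between the farthest sample and its nearest neighbour was divided by the range of the group and set against Dixon's 95% critical value. Of 24 such groups (6 genes in 4 groups), 3 passed, where chance gives about 1 in 20. Mapk8 in DNBS_Nissle sample 4 had a ratio of 0.978, at −5.67 with the other DNBS_Nissle samples between −2.77 and −2.71 on the −ΔCt scale. Map2k3 in the same sample had a ratio of 0.867, at −3.98 with the others between −1.56 and −1.19. Fos in healthy sample 4 had a ratio of 0.853, at −0.64 with the other healthy samples between 0.00 and 0.11. These ratios were computed only with the reported reference genes. Without Ywhaz and Rplp2, Fos stood at −1.18 in healthy sample 4, next to −0.96 in healthy sample 3. Healthy samples 5 and 6 then had −0.48 and −0.28, so sample 4 no longer stood apart. With the global mean, DNBS_Nissle sample 4 stayed the lowest of its group. Mapk8 was at −2.37 there (others −0.21 to 0.56) and Map2k3 at −0.68 (others 1.07 to 1.77). Whether these pass the critical value was not tested.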

How the results depend on the processing

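No alternative brought a member past the threshold: in limma 0 of 190 recomputed counts of members were above 0, and the lowest adjusted p of a member was 0.107, for Map2k6 in the 3 DNBS-treated groups against healthy with the 3 most stable reference genes. Of 1154 recomputed differences, 119 changed sign, each of a member whose reported difference was smaller than its SE. Map2k6 stayed below 0 against healthy under every setting tried, from −0.99 (quantile normalization) to −0.40 (without DNBS sample 3) for DNBS and from −0.76 to −0.29 for the 3 groups together. The median of all genes between DNBS and healthy was 0.12 as reported, −0.11 with the global mean and −0.19 with quantile normalization, so member differences shift with it. Of 10 same-numbered pairs of samples 4 had a correlation over 0.1 (range −0.473 to 0.305). Pairs with different numbers were not correlated for comparison, so these values cannot tell whether the replicate numbers pair the samples.

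The counts of genes called over the whole table were less stable. For DNBS against healthy (5) the count was 0 with the global mean, the 3 most stable reference genes, quantile normalization or without the 2 samples with most filled values. It was 1 without Ywhaz and Rplp2, with all endogenous controls, Ct limits of 26 or 30, any Ct under 40, undetected wells set to Ct 28, no detection filter, or shortened decimals left out, and 3 with a trended robust eBayes. For DNBS_Nissle against healthy (11) it was 4 with a Ct limit of 26, 20 with only the compared groups in the fit, and 0 without the 2 samples with most filled values, as it was for the 3 groups together (9). With the replicate block the counts were 2, 0 and 0 for DNBS, DNBS_Nissle and the 3 groups against healthy, and Map2k6 in the last was −0.29. With single samples left out, the counts ran from 0 to 6 for DNBS against healthy, 0 to 14 for DNBS_Nissle, 0 to 11 for the 3 groups and 0 to 1 for DNBS_CEC, the 0 for DNBS_Nissle and the 3 groups being without healthy sample 3. The number of samples, 4 a group, limits the precision: the median SE was 0.46.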

Other observations

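The assays of the reference gene Hprt1 differed in how closely they followed Mapk8 over the 16 samples, on raw Ct values: r was 0.887 for Mm01318743_m1, 0.527 for Mm01318747_g1, 0.11 for Mm01324427_m1 and 0.0332 for Mm00446968_m1. Of other reference genes, Polr2a had r = 0.886 with Mapk8, while Actb had −0.109, Tbp −0.366 and Pgk1 −0.223. These values were looked at after the pattern of Mapk8 was seen, and their part in the pattern was not tested.

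The log2 ratio of Map2k6 to Map2k3, the pair of p38 activators, averaged −1.96 ± 0.50 in DNBS_CEC, −1.74 ± 1.43 in DNBS_Nissle, −2.15 ± 0.10 in DNBS and −1.16 ± 0.59 in healthy mucosa (mean ± SD, n = 4). It needs no reference gene. DNBS samples ranged from −2.30 to −2.06 and healthy samples from −1.78 to −0.36, without overlap, while DNBS_Nissle samples ran from −3.08 to 0.20, the top value being that of sample 4. The ratio was chosen after the values were seen and was not tested. It contains Map2k6, which alone did not overlap between DNBS and healthy samples, so its non-overlap is not an independent result.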
